A study of Mus musculus with 12 samples.

Results

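The 10 genes described here encode Mincle, the related C-type lectin receptors and the signalling chain below them. They are the receptor genes Clec4e, Clec4d, Clec4n, Clec4a2 and Clec7a, the adaptor gene Fcer1g, the kinase gene Syk, and Card9, Bcl10 and Malt1. Members were every non-control probe that carried one of these names on an Agilent mouse array, which gave 19 of the 56605 probes and 10 of the 37325 gene names. A gene was tested if 3 or more of the 12 arrays measured a probe of it well above background, which held for 8 of the 10 genes, with 14 probes, among 25947 genes tested. Clec4a2 and Card9 did not reach this minimum.

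RNA from whole kidney of 12 male mice on a C57 background was hybridised to one-colour arrays, 1 mouse sample per array. Wild-type (WT) mice and mice in which Jaml, the gene of a junctional adhesion molecule-like protein, had been knocked out (KO) had either a sham operation or ischemia-reperfusion injury (IRI). This injury stops blood flow to both kidneys and then restores it, and tissue was taken 24 h later. The series text gives a clamping time of 40 min and the treatment protocol gives 30 min, and no age is given. The 4 groups were sham and IRI kidneys of WT mice and sham and IRI kidneys of KO mice, with 3 independent samples each, so p-values measure the spread between these samples. The promoter or cell type behind the knockout is not described in the labels, which call it a knockout only.

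C-type lectin receptors are found mainly on macrophages, dendritic cells and neutrophils, where they bind glycans and glycolipids of microbes and, for Mincle, also material set free by dying cells. Mincle, its partner MCL (Clec4d) and Dectin-2 (Clec4n) carry no signalling motif and use the FcRγ chain (Fcer1g), whose ITAM motif recruits the kinase Syk. Dectin-1 (Clec7a) has a motif of its own that also recruits Syk, while DCIR (Clec4a2) carries an inhibitory motif. Below Syk, Card9 assembles with Bcl10 and the protease Malt1 into the CBM complex, which activates NF-kB and the cytokine genes it controls.

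Levels are given on a log2 scale on which 0 is the 75th percentile of that array's processed signals, and a step of 1 is a doubling. Levels of different probes are not comparable with each other. Signal was well above background for 62.9% to 68.1% of probes per array, and no spot was saturated. The 6 WT arrays were on 1 slide and the 6 KO arrays on another, so genotype and slide cannot be told apart. A position code in the array headers was 1 on all WT sham arrays and 2 on all WT IRI arrays. Code and treatment thus cannot be told apart in WT kidneys either. The code was 1 on all KO sham arrays and KO IRI replicate 1, and 2 on KO IRI replicates 2 and 3. In KO kidneys code and treatment are therefore partly mixed up with each other as well. WT IRI replicate 1 lay farthest from its group mean, with a root mean square deviation of 0.581 against 0.207 to 0.432 on the other arrays. The 6 kidney tubule markers were well above background on every array. Jaml itself read -0.43 to -0.26 in WT sham, -1.80 to 0.55 in WT IRI, -3.54 to -2.59 in KO sham and -3.0 to -1.89 in KO IRI kidneys. The labels do not say which part of the gene was deleted. It was lower in KO sham than in WT sham kidneys, by a log2 difference of -2.79 ± 0.56 (SE, limma adjusted p = 0.0152), and the KO IRI against WT IRI difference was -1.57 ± 0.56 (adjusted p = 0.153).

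The sequences that the main results rest on are those of 5 probes and 2 promoters. Each probe has 60 bases, of which the first 30 are shown as in the array files, with the brightest and second Syk probes both given because they differed. Probe positions are those of the array files, on mouse build mm9, where Clec4d lies at chr6:123224788-123224847, Clec4e at chr6:123232878-123232937, Fcer1g at chr1:173159794-173159853, the brightest Syk probe at chr13:52744088-52744147 and the second Syk probe at chr13:52708988-52709047. The array files assign each probe to its gene; which exon it lies in was not analysed here.
Clec4e probe: actggatttcacctgtacttgtatctactg
Clec4d probe: aggatttgtaaattacctggaataacattc
Fcer1g probe: aggtccccatctccgttaaagacttactca
Syk brightest probe: cccagagcagcacacagtgattccctgtta
Syk second probe: cctagaaatataggtgtttcctctgcattt
The probes of Clec4a2, Clec4n, Clec4d and Clec4e span 139.0 kb of chromosome 6, and 8.0 kb lie between those of Clec4d and Clec4e. In the best ungapped alignment of any pair of these 4 lectin probes, 20 to 23 of 60 bases were equal.

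The promoters of Clec4e and Clec4d are shown because these 2 neighbouring genes moved most. RefSeq (GRCm38.p6) gave promoters for 8 of the 10 genes, all but Clec4n and Malt1, and the 250 bases before each start site were searched on both strands. The motifs were C/EBP (TTGCNNAA, in 9.6% of all 32851 promoters), PU.1 (GAGGAAG, in 10.6%), NF-kB (GGG and TTCC with 3 bases of any kind between them, in 4.6%) and AP-1 (TGANTCA, in 6.7%). Capitals mark matches. The Clec4e promoter is chr6:123289872-123290121 on the minus strand, with a C/EBP match at -66 to -59 from the start site. The Clec4d promoter is chr6:123261857-123262106 on the plus strand, with a PU.1 match at -241 to -235.
Clec4e promoter: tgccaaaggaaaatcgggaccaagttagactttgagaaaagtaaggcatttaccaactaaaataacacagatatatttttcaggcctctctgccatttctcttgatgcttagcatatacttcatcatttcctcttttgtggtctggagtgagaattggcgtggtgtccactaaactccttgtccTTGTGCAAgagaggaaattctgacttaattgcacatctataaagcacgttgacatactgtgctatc
Clec4d promoter: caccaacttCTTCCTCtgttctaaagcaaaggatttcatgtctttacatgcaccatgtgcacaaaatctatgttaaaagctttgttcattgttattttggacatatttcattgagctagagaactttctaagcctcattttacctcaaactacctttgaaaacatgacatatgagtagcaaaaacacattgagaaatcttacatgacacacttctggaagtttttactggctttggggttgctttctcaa
These matches describe letters and not bound sites. The promoters of Clec4a2, Clec7a, Fcer1g, Syk, Card9 and Bcl10 held no match to the 4 motifs in this window.

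Clec4e, which encodes Mincle, was highest in injured WT kidneys and lowest in KO sham kidneys. Its levels were -5.07, -4.62 and -5.80 on the WT sham arrays and -2.30, -2.33 and -2.71 on the WT IRI arrays. On the KO sham arrays they were -7.90, -7.21 and -8.29, none of them well above background, and on the KO IRI arrays -5.62, -6.15 and -5.84, of which 2 of 3 were well above background. The 3 WT IRI arrays stood above all others and the 3 KO sham arrays below all others, while the WT sham and KO IRI arrays overlapped. Clec4e is a dim probe outside injured WT kidneys: its processed signal, a linear intensity, was 13.3 to 30.9 in WT sham, 119 to 193 in WT IRI, 2.42 to 4.58 in KO sham and 11.6 to 16.7 in KO IRI kidneys. The median probe of an array had an intensity between 46.6 and 63.8.

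Clec4d, which encodes the Mincle partner MCL, rose after injury in both genotypes. Its levels were -4.00, -4.34 and -3.85 in WT sham and -1.51, 0.45 and 0.33 in WT IRI kidneys. In KO sham kidneys they were -7.73, -5.66 and -7.56, of which only replicate 2 was well above background, and in KO IRI kidneys -2.34, -2.69 and -0.57. Each IRI group lay above its own sham group on every array, the KO sham arrays lay below the WT sham arrays, and the 2 IRI groups overlapped.

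**Figure D1:**
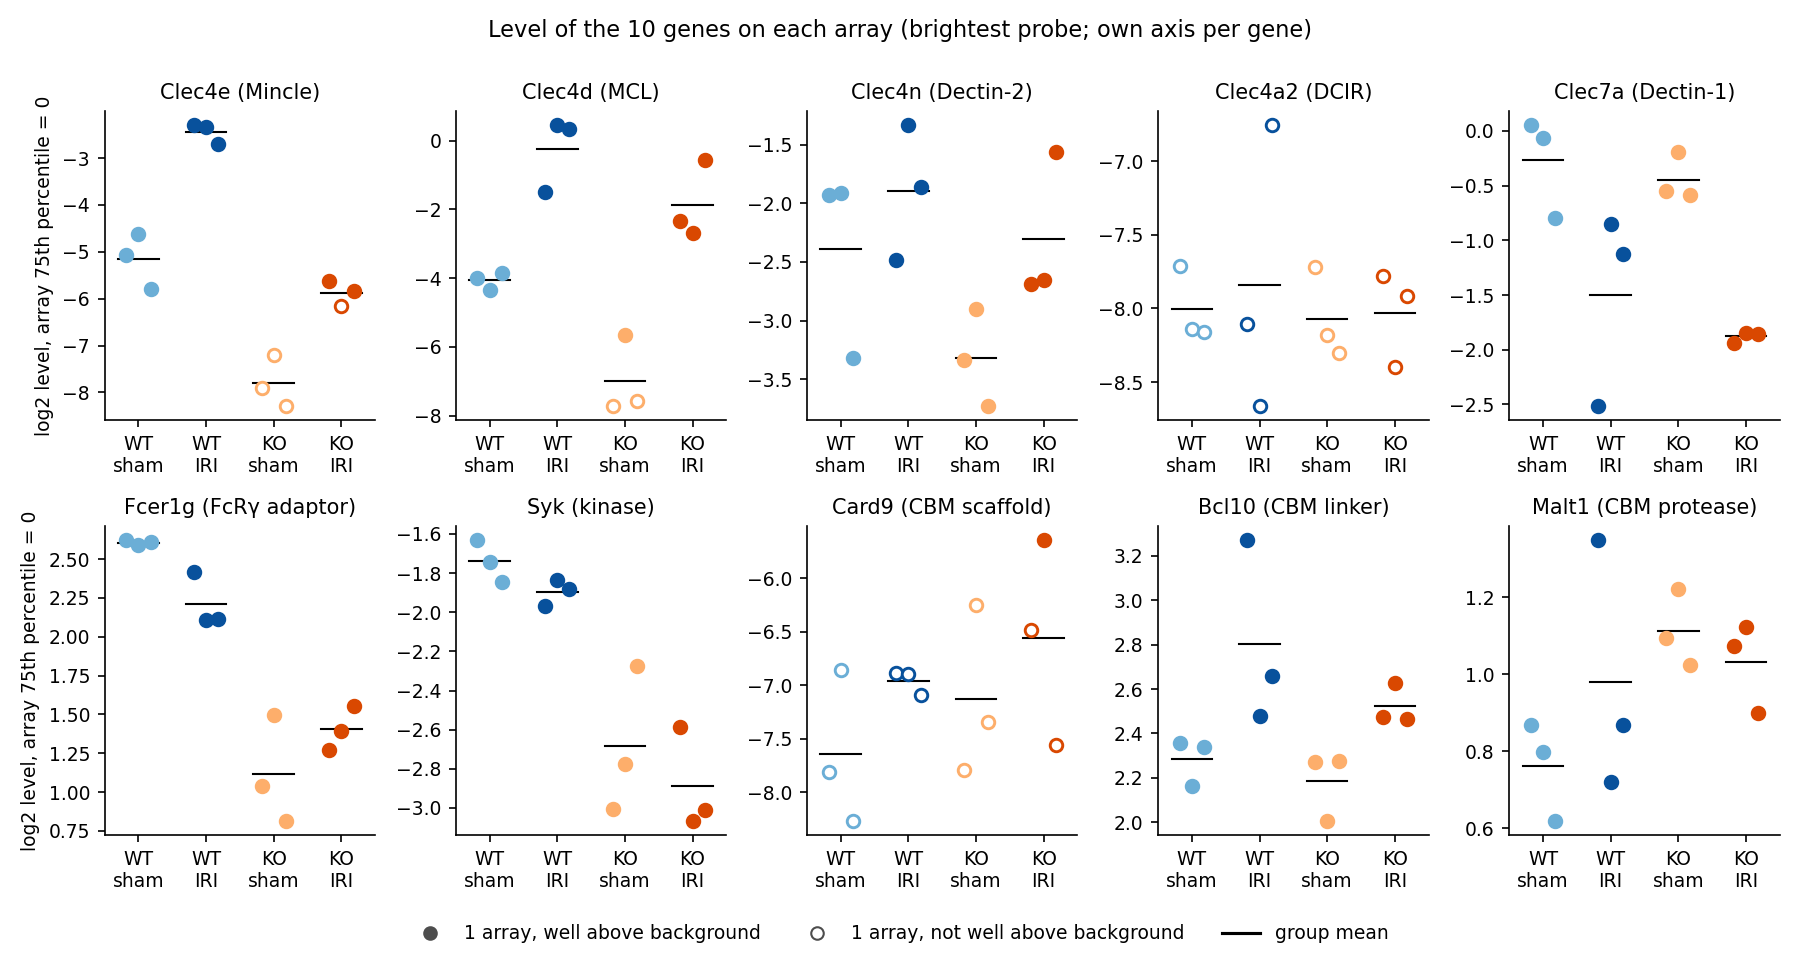
Log2 level of each of the 10 genes (array 75th percentile = 0, a separate axis per gene) on the 12 arrays by group; each point is 1 array, filled if the probe was well above background and open if not, and bars are group means. Clec4e runs from -8.29 in KO sham to -2.30 in WT IRI kidneys, and all WT arrays lie above all KO arrays for Fcer1g and for the brightest Syk probe.

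The comparison of WT IRI with WT sham kidneys asks what injury did in the normal genotype. Of the 8 tested genes, 2 were higher and 0 lower in limma at an adjusted p below 0.05, where 6.08% of all genes tested were higher and 5.9% lower. Clec4e rose by 2.72 ± 0.33 (SE, adjusted p = 0.00212), a fold of 6.58, with a 95% interval of 1.98 to 3.45. Clec4d rose by 3.82 ± 0.72 (adjusted p = 0.0118, interval 2.23 to 5.41). Both passed in each of the 23 alternative fits, in which the Clec4e difference ran from 1.32 to 2.99 and that of Clec4d from 2.82 to 4.45. Not all of these fits could differ: the one with slide as a block repeats the main fit. Changing the filter, fitting only the groups compared, the replicate block and leaving out a KO array kept the difference. Those fits could change only its p-value. With 1 probe per gene, averaging probes or fitting each probe also returns the main difference. The other 6 genes did not pass, and 5 of the 8 had an unadjusted p below 0.05. The median difference over the 8 genes was 0.36, against -0.01 over all genes tested.

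The same injury in KO mice is read from KO IRI against KO sham kidneys. Again 2 of 8 genes were higher and 0 lower, against 2.1% higher and 4.05% lower over all genes tested. Clec4d rose by 5.12 ± 0.72 (limma adjusted p = 0.00511, interval 3.52 to 6.71), from a KO sham group in which 1 of 3 arrays measured it. With normexp background correction, which adds an offset and shrinks dim probes, that rise was 1.92 (adjusted p = 0.0303). Clec4e also passed (adjusted p = 0.0109), but the KO sham group gives only a bound and KO IRI signal did not exceed that bound, so no fold is given. The Clec4e call was lost with normexp (difference 0.05, adjusted p = 0.828) and without KO sham replicate 1 (adjusted p = 0.0501). The median over the 8 genes was 0.31, or 0.145 with Clec4e counted as 0, against -0.08 over all genes.

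The comparison of KO sham with WT sham kidneys asks how the genotypes differed without injury. Here 0 of 8 genes were higher and 4 lower, against 5.12% higher and 3.73% lower over all genes tested. Clec4e was called lower in KO sham kidneys (limma adjusted p = 0.00317) and was at least 1.61-fold lower there. That bound was set by the lowest signal well above background, per array, or the probe's own where that was higher. The p-value belongs to the fitted difference, and the bound has no error estimate. Clec4d was lower by a log2 difference of -2.92 ± 0.72 (adjusted p = 0.0341). With normexp neither gene passed, at -0.23 (adjusted p = 0.261) for Clec4e and -0.51 (adjusted p = 0.517) for Clec4d. The Clec4d call was also lost without any 1 of the 3 WT sham arrays, KO sham replicate 1 or KO sham replicate 3. The remaining 2 genes lower were Fcer1g and Syk, described below. The median over the 8 genes was -0.94, or -0.81 with Clec4e at its bound, against 0.13 over all genes.

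Between the injured groups, KO IRI against WT IRI, 0 of 8 genes were higher and 3 lower, against 0.91% higher and 1.02% lower over all genes tested. Clec4e was lower by a log2 difference of -3.43 ± 0.33 (limma adjusted p = 0.00267, interval -4.16 to -2.69), with 2 of 3 KO IRI arrays well above background. It passed in each of the 22 alternative fits, with a difference between -3.56 and -1.50, the latter with normexp. Several of these fits again could change only the p-value. For Clec4d the difference was -1.62 ± 0.72 with an interval of -3.22 to -0.03, and it did not pass (adjusted p = 0.225). The other 2 calls, Fcer1g and Syk, were lost in many alternatives, given below. The median over the 8 genes was -0.61, against 0.04 over all genes. Each group enters 2 of these 4 comparisons, so the comparisons share arrays and their values stand side by side only.

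**Figure D2:**
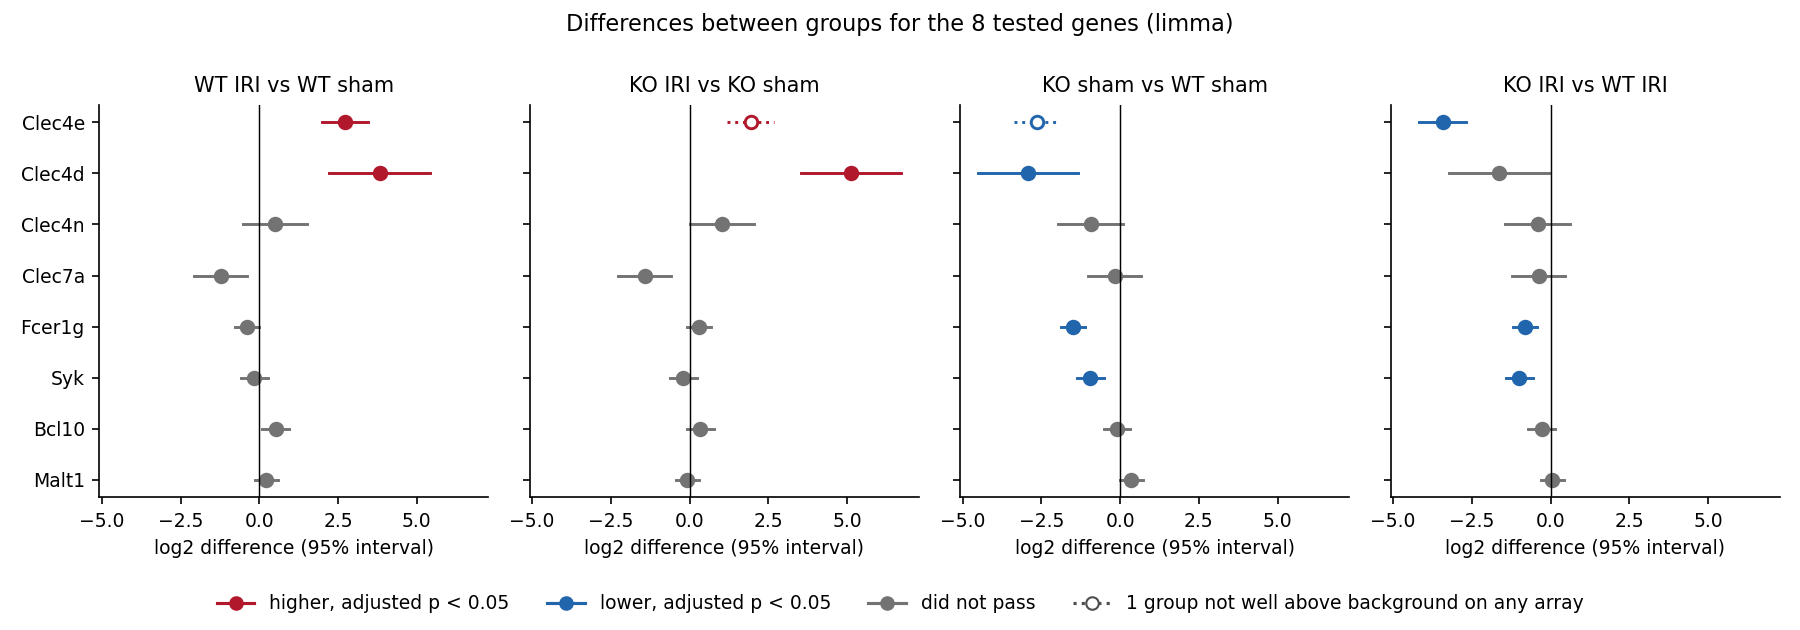
Log2 difference with its 95% interval for the 8 tested genes in the 4 comparisons (limma); red and blue mark higher and lower at an adjusted p below 0.05, and open points with dotted intervals mark a comparison in which all 3 arrays of 1 group missed the background flag, so that the fitted difference is no fold. Clec4e and Clec4d lie to the right of 0 after injury in both genotypes, and Fcer1g and Syk lie to the left of 0 in both comparisons of KO with WT.

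The interaction, which is the KO response to injury minus the WT response, asks whether the genotypes responded differently. No member passed in limma: 0 of 8 were higher and 0 lower, against 0.0193% higher and 0.0501% lower over all genes tested, and 1 of the 8 had an unadjusted p below 0.05. That gene was Fcer1g, at 0.68 ± 0.24 (adjusted p = 0.419, interval 0.14 to 1.23). The interval was -1.83 to 0.25 for Clec4e, whose KO sham values are not well above background, and -0.96 to 3.55 for Clec4d, so differences in response of over 1 log2 unit lie inside both. With normexp the Clec4e interaction was -1.27 and passed (adjusted p = 0.0165). With array weights the Fcer1g interaction was 1.01 and passed (adjusted p = 0.026).

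The other tested lectin receptor genes, Clec4n and Clec7a, passed in none of the 4 comparisons. Clec4n, which encodes the fungal receptor Dectin-2, had levels of -1.93, -1.91 and -3.32 in WT sham, -2.48, -1.33 and -1.86 in WT IRI, -3.34, -2.90 and -3.73 in KO sham, and -2.69, -2.65 and -1.56 in KO IRI kidneys. Its largest difference was 1.02 ± 0.46 for KO IRI against KO sham (adjusted p = 0.238, interval 0.00 to 2.05). The KO sham arrays of Clec4n lay below both IRI groups and overlapped the WT sham arrays.

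Clec7a, which encodes the beta-glucan receptor Dectin-1, was the 1 receptor gene whose values lay lower after injury in both genotypes, although neither difference passed. Its brightest probe read 0.05, -0.07 and -0.79 in WT sham and -2.52, -0.85 and -1.13 in WT IRI kidneys. It read -0.55, -0.20 and -0.59 in KO sham and -1.94, -1.84 and -1.85 in KO IRI kidneys. The IRI arrays did not overlap the sham arrays in either genotype. The IRI minus sham difference was -1.23 ± 0.38 in WT (limma adjusted p = 0.0627, interval -2.07 to -0.38) and -1.43 ± 0.38 in KO (adjusted p = 0.0545, interval -2.28 to -0.59). It passed in 3 of 23 alternative fits in WT and in 6 of 23 in KO. Between genotypes the differences were -0.18 ± 0.38 in sham and -0.38 ± 0.38 in IRI kidneys. The second, dimmer Clec7a probe gave the opposite sign there, 1.20 ± 0.61 and 1.06 ± 0.61, and neither probe passed.

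Clec4a2, which encodes the inhibitory receptor DCIR, was well above background on 0 of 12 arrays. The 1 probe for it read between -8.66 and -6.76 on the 12 arrays.

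Fcer1g, the FcRγ chain through which Mincle, MCL and Dectin-2 signal, had lower levels in KO kidneys in both comparisons of genotype. Its levels were 2.62, 2.59 and 2.61 in WT sham and 2.42, 2.11 and 2.11 in WT IRI kidneys. They were 1.04, 1.49 and 0.81 in KO sham and 1.27, 1.39 and 1.55 in KO IRI kidneys. All 6 WT arrays lay above all 6 KO arrays, and the 2 KO groups overlapped. How many of all genes tested separate groups or genotypes in this way was not counted, here or for the other members. Fcer1g was lower in KO sham than in WT sham kidneys by -1.49 ± 0.17 (limma adjusted p = 0.00259, interval -1.88 to -1.11), and this passed in each of the 22 alternative fits. As for Clec4e, several of those fits could change only the p-value. In IRI kidneys the genotype difference was -0.81 ± 0.17 (adjusted p = 0.0472, interval -1.19 to -0.42). That call was lost in 13 of 22 alternatives, over which the adjusted p reached 0.165 and the difference ran from -0.88 to -0.68. Leaving out 1 array ended it except for WT IRI replicate 2, KO sham replicate 2 and KO sham replicate 3. The injury difference was -0.39 ± 0.17 in WT (adjusted p = 0.162). It was 0.29 ± 0.17 in KO mice (adjusted p = 0.373), and neither passed.

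Syk, the kinase recruited by ITAM motifs, gave the same order of genotypes by its brightest probe. That probe read -1.63, -1.74 and -1.85 in WT sham, -1.97, -1.83 and -1.88 in WT IRI, -3.0, -2.77 and -2.28 in KO sham, and -2.59, -3.07 and -3.01 in KO IRI kidneys. By that probe all WT arrays lay above all KO arrays. The KO minus WT difference was -0.94 ± 0.19 in sham (limma adjusted p = 0.0164) and -0.99 ± 0.19 in IRI kidneys (adjusted p = 0.0327). These calls were lost in 4 and 9 of 22 alternatives respectively, among them the mean over both kept probes, with adjusted p of 0.25 and 0.0936. The sham call was also lost when KO sham replicate 1, WT sham replicate 1 or WT sham replicate 2 was left out. The IRI call was lost without either of those WT sham arrays, WT IRI replicate 3 or KO IRI replicates 2 and 3 in turn. The second kept probe, designed to another transcript record, gave 0.24 ± 0.18 in sham and -0.26 ± 0.18 in IRI kidneys and did not pass. By it the genotypes overlapped, at -4.908 to -4.41 on the WT and -5.055 to -4.405 on the KO arrays. The probes of Syk thus disagreed in sign in sham kidneys. The 2 further Syk probes were not tested, being well above background on 0 and 1 of 12 arrays.

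Card9, the scaffold of the CBM complex, was not measurable with its 2 probes, which were well above background on 0 and 1 of the 12 arrays. Bcl10, which links Card9 to Malt1, read 2.36, 2.17 and 2.34 in WT sham and 3.27, 2.48 and 2.66 in WT IRI kidneys by its brightest probe. It read 2.27, 2.01 and 2.28 in KO sham and 2.48, 2.63 and 2.46 in KO IRI kidneys. In both genotypes the IRI arrays lay above the sham arrays. The differences were 0.52 ± 0.19 in WT (limma adjusted p = 0.104) and 0.34 ± 0.19 in KO (adjusted p = 0.342) and did not pass.

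Malt1, the protease of the complex, read between 0.62 and 1.35 on the 12 arrays by its brightest probe. None of its 4 comparisons passed, and the largest difference was 0.35 ± 0.16 for KO sham against WT sham (limma adjusted p = 0.222, interval -0.01 to 0.72). Between the IRI groups that probe gave 0.05 ± 0.16, while the 3 dimmer Malt1 probes gave -0.72, -0.45 and -0.55, none of which passed. For Bcl10 the dimmer probe gave -0.71 ± 0.24 in the same comparison (adjusted p = 0.16), beside -0.28 ± 0.19 for the brighter one.

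**Figure D3:**
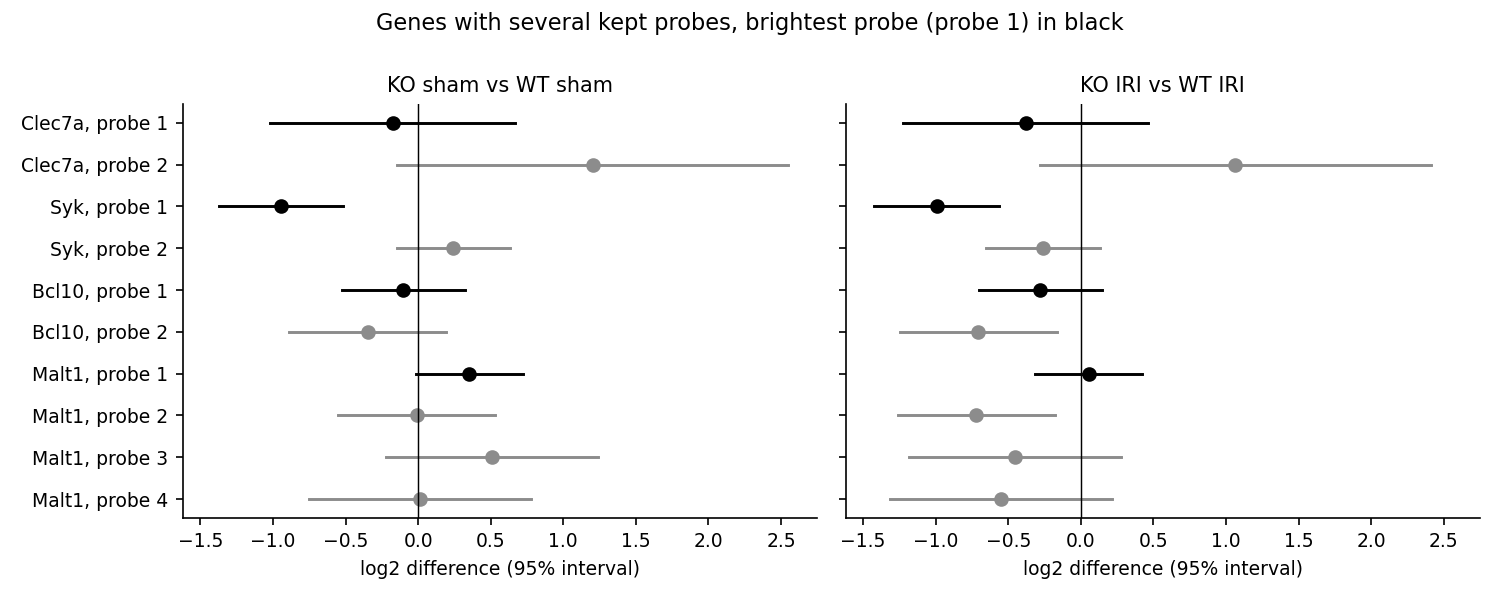
Log2 difference of KO minus WT with its 95% interval for every kept probe of the 4 genes with more than 1 kept probe, in sham (left) and IRI kidneys (right); the brightest probe, which stands for the gene in the tests, is in black. The Syk probes lie on both sides of 0 in sham kidneys, at -0.94 and 0.24, and the Clec7a probes do so in both panels.

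Marker lists of myeloid cells, which can carry these receptors, did not all move the same way after injury: neutrophil genes mostly rose in WT kidneys, while more macrophage and dendritic genes fell than rose. In whole-kidney RNA fewer cells of a type and less RNA per cell cannot be told apart. The marker lists were chosen with earlier results of these data known, so their shares are a description. Of the neutrophil list, 11 of 12 genes were measured, all but Ngp, and its mean log2 level was -2.43 to -1.20 in WT sham, 0.06 to 0.61 in WT IRI, -3.61 to -2.70 in KO sham and -2.41 to -1.33 in KO IRI kidneys. The -1.20 was that of WT sham replicate 3, beside -2.43 and -2.40 on replicates 1 and 2. In that list 7 genes were higher and 1 lower in WT IRI than in WT sham kidneys (63.6% and 9.09%, against 6.08% and 5.9% of all genes tested). The lower gene was the neutrophil marker Ly6g, by -0.95 ± 0.19 (limma adjusted p = 0.0135), and Csf3r, Camp and Ltf did not pass. In KO IRI against KO sham 2 were higher (18.2%, against 2.1%), and no interaction of the list passed. In KO sham against WT sham 3 were lower (27.3%, against 3.73%). In KO IRI against WT IRI kidneys 4 were lower (36.4%, against 1.02%). Between the IRI groups, Il1r2, a decoy receptor for interleukin-1, differed by -3.61 ± 0.43 (limma adjusted p = 0.00558) and Retnlg by -3.49 ± 0.59 (adjusted p = 0.0183), while Ltf, the granule protein lactoferrin, differed by -0.63 ± 0.88 (adjusted p = 0.699) and did not pass. Il1r2, Retnlg and Ltf were picked after their values were seen. The part of the neutrophil genes in the Clec4e and Clec4d results was not tested.

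All 15 of 15 genes of the macrophage and monocyte list were well above background on every array. Their mean log2 level was 1.66 to 1.76 in WT sham, 1.16 to 1.32 in WT IRI, 0.56 to 1.06 in KO sham and 0.76 to 1.13 in KO IRI kidneys. After injury 2 of its genes were higher and 6 lower in WT kidneys (13.3% and 40%, against 6.08% and 5.9% of all genes tested). In KO kidneys 1 was higher and 2 lower after injury (6.67% and 13.3%, against 2.1% and 4.05%). Between genotypes 0 were higher and 5 lower in sham kidneys (33.3% lower, against 3.73%), and 0 passed in IRI kidneys. Among the genes lower in KO sham kidneys were the complement gene C1qa, by -1.78 ± 0.25 (limma adjusted p = 0.00444), and Aif1, by -1.93 ± 0.30 (adjusted p = 0.0063). Csf1r, the receptor for the macrophage growth factor, differed by 0.36 ± 0.13 (adjusted p = 0.12) and did not pass. These 3 genes were also picked after their values were seen. The part of these cells in the Fcer1g result was not tested.

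Lymphocyte markers moved as well. Of the T and NK cell list, 6 of 7 genes were measured, all but Ncr1, and their mean log2 level was -1.58 to 0.80 in WT sham, -3.08 to -2.64 in WT IRI, -2.28 to -1.48 in KO sham and -3.28 to -2.89 in KO IRI kidneys. WT sham replicate 3 stood apart from replicates 1 and 2. On it Cd3g read -3.01, against 0.09 and 0.08, and Nkg7 read -0.81, against 2.33 and 2.24. In WT kidneys 0 were higher and 5 lower after injury (83.3% lower, against 5.9% of all genes tested), with a median difference of -3.56. In KO kidneys 0 passed, against 4.05% lower over all genes, with a median difference of -1.195. No interaction of this list passed, so these counts show no difference in response between genotypes. Between genotypes 0 were higher and 3 lower in sham kidneys (50% lower, against 3.73%), and 0 passed in IRI kidneys. NK cells can carry FcRγ, and the part of this list in the Fcer1g result was not tested.

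**Figure D4:**
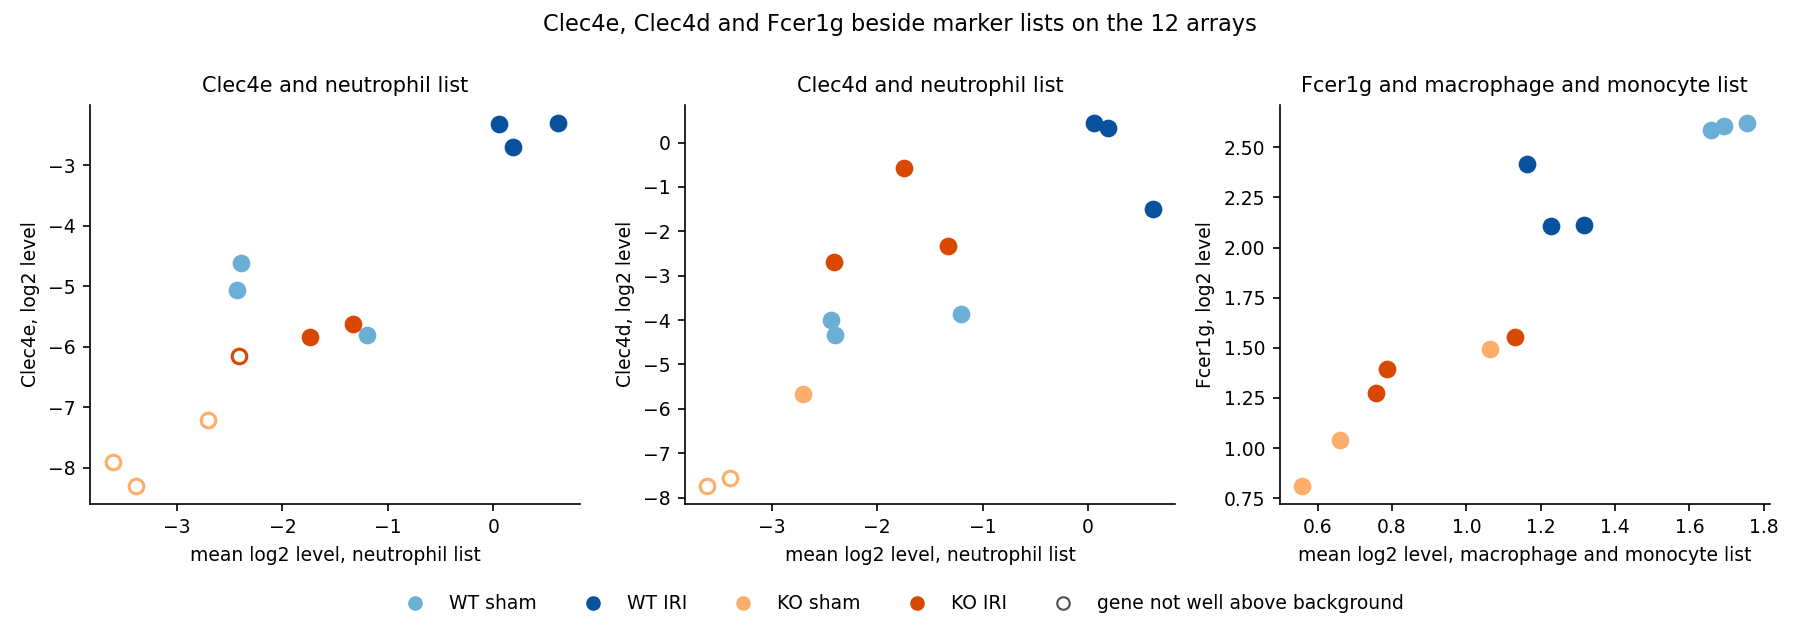
Log2 level of Clec4e and Clec4d against the mean log2 level of the neutrophil list, and of Fcer1g against that of the macrophage and monocyte list, on the 12 arrays; each point is 1 array, coloured by group, and open points mark a gene not well above background. WT IRI arrays lie at the upper right for Clec4e (neutrophil mean 0.06 to 0.61), KO sham arrays at the lower left, and the 6 WT arrays lie above the 6 KO arrays for Fcer1g.

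Genes whose pattern was most like Clec4e or Fcer1g were ranked by Pearson correlation of log2 levels over the 12 arrays, among 15888 named genes well above background on at least 6 arrays. These arrays share 4 groups, so their r is a description with no test. Most like Clec4e were Pram1 (r = 0.97), Stfa2l1 (0.969), Pglyrp1 (0.968), Fpr2 (0.967) and Csf2rb (0.962). Pglyrp1, a peptidoglycan-binding protein of neutrophil granules, had mean levels of -2.98 in WT sham, -2.07 in WT IRI, -4.82 in KO sham and -3.70 in KO IRI kidneys. Fpr2, a formyl peptide receptor, had -1.33, -0.18, -1.97 and -1.61 in the same order. In both genes WT IRI was highest and KO sham lowest, an order that their choice by correlation with Clec4e selects for. Clec4e itself was well above background on 8 of the 12 arrays. Most like Fcer1g were Havcr2 (r = 0.983), Lrrc25 (0.983), Ctss (0.973), Plek (0.968) and Lat2 (0.968). Ctss, the lysosomal protease cathepsin S, had mean levels of 4.86 in WT sham, 4.27 in WT IRI, 2.80 in KO sham and 3.24 in KO IRI kidneys. None of these 10 genes was on a marker list.

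The wider pathway was read from a list of 57 other genes, of which 54 were measured. The list was chosen with earlier results of these data known, so its shares are a description and no independent test. After injury 6 were higher and 8 lower in WT kidneys (11.1% and 14.8%, against 6.08% and 5.9% of all genes tested). In KO kidneys 3 were higher and 2 lower (5.56% and 3.7%, against 2.1% and 4.05%). Between genotypes 1 was higher and 19 lower in sham kidneys (1.85% and 35.2%, against 5.12% and 3.73%). In IRI kidneys 0 were higher and 1 lower (0% and 1.85%, against 0.91% and 1.02%), and the KO injury and IRI genotype shares rest on 5 genes and 1 gene. The median difference over the list was -0.03 and 0.14 for injury in WT and KO, and -0.54 and -0.44 for genotype in sham and IRI kidneys.

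Among the 12 measured other myeloid lectins, 0 were higher and 4 lower in WT IRI than in WT sham kidneys. That is 33.3% lower, against 5.9% of all genes tested. Clec9a, a dendritic cell receptor for dead cells, fell by 3.36 ± 0.56 (limma adjusted p = 0.00753), the inhibitory receptor Clec12a by 2.33 ± 0.37 (adjusted p = 0.00641) and Clec4b1 by 1.61 ± 0.14 (adjusted p = 0.000376). These 3 lectins thus went the other way from Clec4e and Clec4d. In KO IRI against KO sham kidneys Clec9a fell by 2.33 ± 0.56 (adjusted p = 0.0379), with 1 of 3 KO IRI arrays well above background. In KO sham against WT sham kidneys 6 of the 12 were lower (50%, against 3.73% of all genes tested), Clec9a by -2.82 ± 0.56 (adjusted p = 0.015). Of the dendritic list, 6 of 7 genes were measured, all but Xcr1. In it 3 were lower in WT IRI than in WT sham (50%, against 5.9% of all genes tested). Again 3 were lower in KO sham than in WT sham kidneys (50%, against 3.73%). The part of the dendritic genes in the lectin results was not tested.

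The other FcRγ partners and ITAM adaptors were also lower in KO sham than in WT sham kidneys, in 4 of 5 genes. That is 80%, against 3.73% of all genes tested. The activating Fc receptor gene Fcgr4 was lower by -2.42 ± 0.41 (limma adjusted p = 0.00825), and 0 of 5 passed in the other 3 comparisons. Of the 9 kinases and proximal signalling genes, 4 were lower in KO sham than in WT sham kidneys (44.4%, against 3.73%). Among them were the exchange factor gene Vav1 and the lipid kinase gene Pik3cg. Of the 6 inhibitory genes, 0 were higher and 2 lower in WT IRI than in WT sham kidneys (33.3% lower, against 5.9%). The counts were again 0 and 2 in KO sham against WT sham kidneys (33.3% lower, against 3.73%), and 0 passed between the IRI groups. After injury in KO kidneys 1 was higher and 1 lower: the phosphatase gene Inpp5d rose by 0.55 ± 0.12 (adjusted p = 0.0229), while the inhibitory Fc receptor gene Fcgr2b fell by 0.99 ± 0.15 (adjusted p = 0.00678). Downstream of the CBM complex, 2 of 11 genes were higher after injury in KO kidneys (18.2%, against 2.1%). In WT kidneys 1 was higher (9.09%, against 6.08%). In KO kidneys Relb rose by 1.27 ± 0.27 (adjusted p = 0.025). Ikbkg, the regulatory subunit of the IKK complex, rose by 0.67 ± 0.14 (adjusted p = 0.0205). Ikbkg rose in WT kidneys too, by 0.82 ± 0.14 (adjusted p = 0.00762), and neither interaction passed. In KO sham against WT sham kidneys 2 of the 11 were lower (18.2%, against 3.73%). Relb was among them, by -1.42 ± 0.27 (adjusted p = 0.0134).

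Of the 10 measured output genes, 5 were higher and 1 lower after injury in WT (50% and 10%, against 6.08% and 5.9% of all genes tested). After injury in KO kidneys 0 passed, against 2.1% higher and 4.05% lower over all genes tested. Of their interactions only that of Cxcl2 passed, so for the others these counts show no difference in response between genotypes. In WT kidneys the cytokine gene Il6 rose by 5.54 ± 1.29 (limma adjusted p = 0.0239), measured on 2 of 3 WT sham arrays. The neutrophil chemokine gene Cxcl1 rose by 3.43 ± 0.81 (adjusted p = 0.0251) in WT and by 2.01 ± 0.81 (adjusted p = 0.189) in KO kidneys. The chemokine gene Cxcl2 was well above background on 0 of 3 WT sham arrays and was at least 2.67-fold higher in WT IRI kidneys (adjusted p = 0.000303). In KO IRI kidneys it was again well above background on 0 of 3 arrays and was at least 3.04-fold lower than in WT IRI kidneys (adjusted p = 0.00049). Its interaction passed (adjusted p = 0.00593), with KO values not well above background in either group. Of the 4 groups only WT IRI had arrays on which Cxcl2 was well above background. Cxcl2 was therefore tested through that group alone, and these calls restate its detection there. Their p-values belong to the fitted differences and not to the bounds. In sham kidneys Ccl2, a monocyte chemokine gene, was lower in KO by -2.93 ± 0.53 (adjusted p = 0.0105), and Tnf was higher by 0.65 ± 0.14 (adjusted p = 0.0204). Sap130, which encodes the nuclear protein that Mincle binds when it is set free, passed in none of the 4 comparisons or the interaction, with differences between 0.00 and 0.30.

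**Figure D5:**
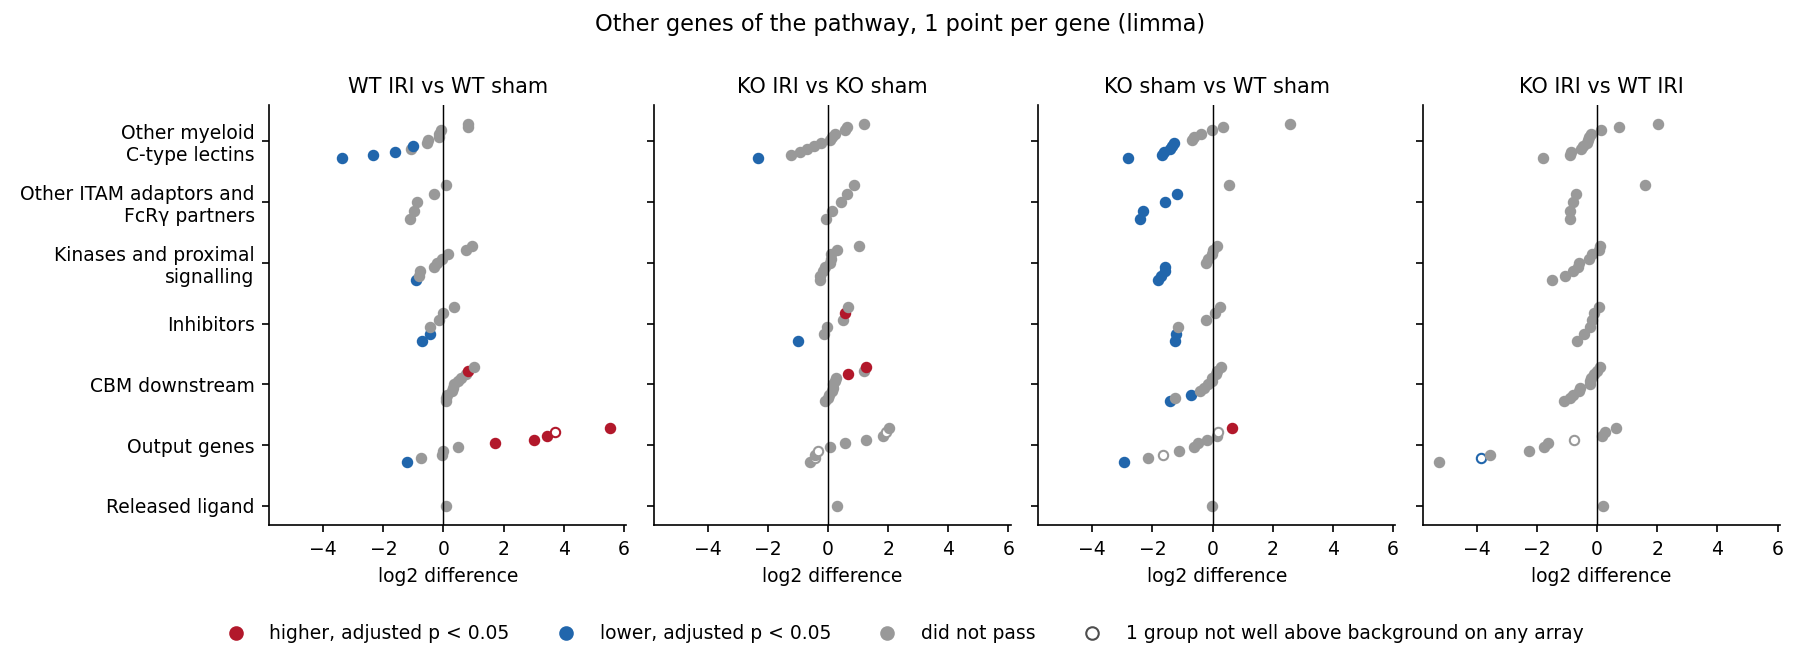
Log2 difference of each of the 54 measured pathway genes in the 4 comparisons (limma), grouped by role, 1 point per gene; red and blue mark higher and lower at an adjusted p below 0.05, and open points mark a gene below the background flag on all 3 arrays of 1 group. In KO sham against WT sham kidneys 19 points are blue and 1 is red, and in KO IRI against WT IRI kidneys 1 is blue.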

How the data were processed

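Deposited scanner files of 12 one-colour Agilent arrays (4 groups of 3) were read. Per the file headers, the authors used Feature Extraction 10.7.1.1, whose processed signal is a linear intensity after background correction within the array, placed on mouse build mm9. The submitters' processing notes name limma. The authors' deposited value table holds log2 values that correlated at 0.9995 to 1.0 with the log2 processed signal of the same array, with medians of 5.706 to 5.707 on every array and no centring of genes, and served as an alternative. Direction does not arise in one-colour values.

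Control spots were dropped, spots of one probe averaged, log2 signals set relative to each array's 75th percentile, and probes kept if well above background on at least 3 arrays. The brightest kept probe stood for a gene. One limma 3.58.1 model (R 4.3.3, 8 residual degrees of freedom) covered 25947 genes and 12 arrays, with Benjamini-Hochberg adjustment and a threshold of 0.05. The procedure was tested on simulated data. Members and lists were chosen with earlier results of these data known, so their shares beside those of all genes are descriptions. Named genes were all members, Jaml, the 3 largest rises and falls past the threshold per comparison among pathway genes, and the 5 genes most like Clec4e and Fcer1g. Symbols came from RefSeq accessions for 32994 of 56605 probes. Array number limits the precision. Alternatives changed scaling, background, filter, probe choice, arrays in the fit, weights and blocks. Values of 1 gene of the pathway list are not reported here.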

Additional observations from a re-analysis of the deposited data

How the results depend on the processing

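Over 23 alternative fits, 40 member differences gave 888 alternative values, of which 817 kept direction and side of the threshold, 35 lost a call, 19 gained one and 17 changed sign. None of the 17 was called on either side. Some of the 888 could not differ from the main fit. The slide block repeats it for both injury comparisons, and genes with a single probe keep their difference when probes are averaged. Fits of only the groups compared, with the replicate block or without an array outside the comparison also keep each difference. They can change only its p-value. Members called numbered 2 for injury in WT, 2 for injury in KO, 4 for genotype in sham kidneys, 3 for genotype in IRI kidneys and 0 for the interaction. With array weights the counts were 5, 5, 7, 3 and 1 in that order, beside 8880, 5697, 9889, 1860 and 1350 genes called in all. With normexp the count was 2 for genotype in sham kidneys and 1 for the interaction. Over all genes 2107 and 37 were called there, against 2297 and 18 in the main fit. For genotype in IRI kidneys it was 1 with no filter and 1 with only the groups compared. Over all genes 335 and 35 were called there, against 501 in the main fit. Leaving out 1 array at a time gave 2 to 4, 1 to 3, 2 to 4 and 1 to 3 members in the first 4 comparisons, and 0 each time for the interaction. For injury, the 4 in WT came without WT IRI replicate 2 and the 1 in KO without KO sham replicate 1. Over all genes 4675 and 454 were called in these fits, against 3109 and 1598 in the main fit. For genotype in sham kidneys, the 2 came when WT sham replicate 1, WT sham replicate 2 or KO sham replicate 1 was left out. Over all genes 927, 1110 and 649 were called there, against 2297. For genotype in IRI kidneys, the 1 came when any of WT sham replicates 1 and 2, WT IRI replicate 3 and KO IRI replicates 2 and 3 was left out. Over all genes 146 to 367 were called there, against 501. The cause was not tested.

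With the replicate block the counts were 2, 2, 4, 1 and 0. Same-numbered arrays had deviations from their group means that correlated between -0.267 and 0.151. Differently numbered arrays were not compared, so whether a number marks shared handling was not tested. The slide as a fixed term adds nothing within a slide and could not be fitted between genotypes.

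With the mean of all kept probes the difference was 0.06 for Syk in WT IRI against WT sham, 0.51 for Clec7a in KO sham against WT sham, and 0.34 for Clec7a and -0.42 for Malt1 in KO IRI against WT IRI. The Clec4d interaction was -0.90 with normexp, and the Syk interaction 0.072 with quantile normalization and 0.073 with the authors' table. Leaving out 1 array gave -0.36 to 0.00 for Syk in KO IRI against KO sham and -0.077 to 0.238 for Malt1 in KO IRI against WT IRI. For the interaction it gave -0.71 to 0.12 for Clec7a, -0.21 to 0.15 for Syk and -0.339 to 0.059 for Bcl10.

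Quantile normalization changed the split over all genes: 828 of 1921 calls were higher in KO sham against WT sham (1329 of 2297 at the 75th percentile scaling) and 805 of 1624 in KO IRI against KO sham (546 of 1598). Dim signal limits Clec4e and Clec4d in KO sham kidneys, and Clec4a2 and Card9 throughout.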
